A study of Mus musculus with 64 samples.

Results

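The subject is the change of the liver transcriptome between the early light and the early dark phase in mice with a knockdown of Acsf3. The 16 libraries are those labelled sh-Acsf3 at ZT0, ZT3, ZT12 and ZT15, of 64 libraries in the series, and were chosen by these labels alone. ZT is zeitgeber time, the hours since lights came on, so ZT0 and ZT3 form the early light phase (8 libraries) and ZT12 and ZT15 the early dark phase (8 libraries), with 4 replicates at each time. All mice were male C57BL/6J, ate ad libitum, and had their livers taken 4 weeks after injection of an AAV8 vector, a virus that carries genes mainly into hepatocytes. The sh-Acsf3 vector carries a hairpin RNA against Acsf3, whose product joins malonate to coenzyme A in mitochondria, which gives malonyl-CoA. The 16 sh-Ctl libraries of the same 4 times, labelled as the controls, served for comparison. Counts of unique molecular identifiers (UMIs) per gene came from BRB-seq, a bulk method that reads the 3′ ends of barcoded transcripts.

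Hepatocytes keep time with a feedback loop in which the activators BMAL1 (Arntl) and CLOCK or NPAS2 switch on genes with E-boxes, among them the Per and Cry repressors and the nuclear receptors REV-ERB (Nr1d1, Nr1d2). REV-ERB and the ROR receptors compete for elements in Arntl and in Nfil3, and DBP, TEF and HLF pass the rhythm on through D-boxes, which NFIL3 also binds. Mice eat mainly in the dark, and the liver's programmes of sugar, lipid and bile acid metabolism follow both this clock and food.

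The totals were 1.64 to 9.35 M UMIs in the light libraries and 1.67 to 5.38 M in the dark ones. Levels are given in CPM, counts scaled for depth with TMM factors. All 11 hepatocyte markers had UMIs in 16 of 16 libraries, and their summed level was 137400 to 156500 CPM in the light and 137300 to 163700 in the dark. Markers of exocrine pancreas summed to at least 100 CPM in 4 libraries, at 3376 CPM in ZT0 replicate 1, 6045 in ZT3 replicate 2, 369 in ZT3 replicate 4 and 3216 in ZT12 replicate 2, and to at most 44.5 CPM in the other 12. The labels do not say whether replicates are separate mice, so p-values measure the spread between these libraries. In bulk tissue, fewer cells of a type and less RNA per cell cannot be told apart. The library of ZT3 replicate 3 stood apart from the other 3 of its group in clock transcripts, with Dbp at 33.5 CPM against 3.01 to 4.19 and Arntl at 4.05 CPM against 11.9 to 19.3. Results that rest on it are given with and without it.

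The knocked-down gene comes first. Acsf3 (ENSMUSG00000015016, chromosome 8, 122775486 to 122817880 on the plus strand, GRCm38) lay at 1.5, 0.762, 1.17 and 3.54 CPM in the 4 replicates of ZT0 and at 2.10, 3.26, 1.73 and 2.79 CPM in those of ZT3. It lay at 6.62, 4.88, 2.82 and 3.62 CPM at ZT12 and at 2.82, 2.97, 2.24 and 2.49 CPM at ZT15. The light and dark libraries overlapped, and the values rest on 47 UMIs in the light and 78 in the dark. The ZT15 libraries, at 2.24 to 2.97 CPM, lay within the range of ZT3, 1.73 to 3.26 CPM. The levels differed mainly between ZT12, at 2.82 to 6.62 CPM, and ZT0, at 0.762 to 3.54 CPM. In the 16 sh-Ctl libraries, scaled together with these, Acsf3 lay at 6.42 to 18.4 CPM. ZT12 replicate 1 of sh-Acsf3 reached into that range and the other 15 sh-Acsf3 libraries lay below it. With so few UMIs the gene did not pass the filter in the fit of the 16 libraries. It entered the fit of the 32 libraries of both treatments only through the sh-Ctl libraries, where its level is higher. Its sh-Acsf3 values from that fit are thus a description. The dark minus light difference of Acsf3 there was 0.86 ± 0.26 (log2, SE) in sh-Acsf3 (edgeR adjusted p = 0.0248). In sh-Ctl it was -0.13 ± 0.16 (edgeR adjusted p = 0.703). The difference between the treatments, 0.99 ± 0.30, did not pass (edgeR adjusted p = 0.659). The adjusted p in sh-Acsf3 is part of that description and is not read as a call. It rose above 0.05 when any of 6 libraries was left out. The edgeR adjusted p was 0.0531 without ZT3 replicate 1, 0.0757 without ZT12 replicate 1 and 0.0526 without ZT15 replicate 1. It was 0.0529 without ZT0 replicate 2 or ZT15 replicate 2, and 0.121 without ZT0 replicate 3. It was also above 0.05 without the libraries with pancreas RNA (edgeR adjusted p = 0.0513).

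Of 8548 genes tested, 796 (9.31%) passed an edgeR quasi-likelihood test at a Benjamini-Hochberg adjusted p of 0.05. Of these 408 rose (4.77%) and 388 fell (4.54%) from early light to early dark, and the median difference of all genes was -0.004 (log2). At least 2-fold changes were found for 71 of the rises (0.831%) and 75 of the falls (0.877%). The 8 dark libraries lay wholly above the 8 light ones for 74 genes (0.866%) and wholly below them for 77 (0.901%). With library size in place of TMM scaling the split was 513 higher and 237 lower, as the median of all genes moved to 0.0761. Without the 4 libraries that held pancreas RNA 203 rose and 225 fell, of which 185 and 205 were among the first calls. Leaving out 1 replicate number, also 4 libraries, gave 209 to 349 rises and 213 to 313 falls. Whether pancreas RNA or only the fewer libraries ended a call was not tested, here or for the single genes below. Without ZT3 replicate 3 the counts were 380 and 360, of which 339 and 334 were among the first calls.

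Transcripts of the clock moved in opposite directions between the phases. Of the tested genes 3 of 5 activators fell (60%) and 7 of 9 repressors rose (77.8%), against 4.54% and 4.77% of all genes. All lists used here were chosen with earlier results of these data known, so their counts describe the lists and test nothing. The promoters of Ciart, Per1, Per3 and Nfil3 are printed here as examples of called genes whose promoter holds an E-box, a D-box or a ROR element. Arntl, with a ROR core, and Tef, with an E-box, were called too and are not printed. The promoters of Clock, Npas2, Cry2, Nr1d2, Dbp and Hlf, all called, held none of these elements. That of Cry1, which was not called, held an E-box. Each shows the 250 bases before the transcription start given by RefSeq (GRCm38.p6), 5′ to 3′ on the gene's own strand, with matches in capitals.
Ciart, chr3:95882229-95882478, minus strand, capitals for 3 E-boxes (CACGTG): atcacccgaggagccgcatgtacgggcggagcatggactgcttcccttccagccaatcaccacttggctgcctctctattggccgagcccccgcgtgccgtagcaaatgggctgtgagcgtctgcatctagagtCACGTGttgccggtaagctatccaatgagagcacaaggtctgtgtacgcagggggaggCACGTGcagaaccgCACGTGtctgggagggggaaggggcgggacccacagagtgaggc
Per1, chr11:69098699-69098948, plus strand, capitals for 1 E-box: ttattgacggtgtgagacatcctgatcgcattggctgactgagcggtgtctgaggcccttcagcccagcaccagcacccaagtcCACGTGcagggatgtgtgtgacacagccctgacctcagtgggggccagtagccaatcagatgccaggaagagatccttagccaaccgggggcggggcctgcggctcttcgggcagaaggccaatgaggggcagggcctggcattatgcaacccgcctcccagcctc
Per3, chr4:151044666-151044915, minus strand, capitals for 2 D-boxes: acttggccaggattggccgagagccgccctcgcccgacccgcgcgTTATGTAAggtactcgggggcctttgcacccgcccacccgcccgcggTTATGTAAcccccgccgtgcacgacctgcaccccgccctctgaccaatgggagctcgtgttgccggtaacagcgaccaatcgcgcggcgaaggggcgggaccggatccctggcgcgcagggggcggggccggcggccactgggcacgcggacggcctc
Nfil3, chr13:52981040-52981289, minus strand, capitals for the core of a ROR element, read here from the other strand: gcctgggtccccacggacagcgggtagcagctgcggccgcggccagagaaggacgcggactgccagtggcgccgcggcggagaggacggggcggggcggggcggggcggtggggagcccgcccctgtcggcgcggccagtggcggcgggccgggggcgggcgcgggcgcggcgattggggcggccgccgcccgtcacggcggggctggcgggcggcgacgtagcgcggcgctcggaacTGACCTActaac
Counted from the start, the E-boxes of Ciart begin at -116, -58 and -44 and that of Per1 at -166, the D-boxes of Per3 at -205 and -158, and the ROR core of Nfil3 at -12. A match of letters is a description and shows no binding.

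Among the 5 activators 3 fell and none rose, with a median difference of -0.77 (log2) against -0.004 for all genes. Arntl, which encodes BMAL1, lay at 17.6, 15.6, 14.3 and 18.3 CPM in the 4 replicates of ZT0 and at 11.9, 19.3, 4.05 and 14.6 CPM in those of ZT3. It lay at 1.77, 1.40, 2.26 and 1.20 CPM at ZT12 and at 3.20, 2.58, 2.24 and 3.11 CPM at ZT15. Every dark library was below every light one, and ZT3 replicate 3 was the light library nearest to them. The fall was 2.73 ± 0.25 on the log2 scale (SE, edgeR adjusted p = 1.56e-08), and the difference was -2.85 without that library. Npas2, which can stand in for CLOCK as the partner of BMAL1, had 135 UMIs in the light and 2 in the dark. Its level was 3.01 to 6.33 CPM in the light libraries and 0 in 6 of the 8 dark ones, with 0.603 CPM in ZT12 replicate 4 and 0.561 CPM in ZT15 replicate 3. Per UMI sequenced it was 56.7 times higher in the light, with an exact 95% interval of 15.4 to 473 that covers counting error only. Npas2 passed the gene filter only through the light libraries, where it is high. Its edgeR adjusted p of 5.17e-08 is thus given as a description.

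Clock fell less, by 0.77 ± 0.15 on the log2 scale (edgeR adjusted p = 0.000822), from 22.0, 30.2 and 36.6 CPM in the light (lowest, median, highest) to 7.83, 16.8 and 23.3 CPM in the dark, with overlap. Rora, a receptor that acts on the ROR element, differed by -0.30 ± 0.11 and did not pass (edgeR adjusted p = 0.0914). It passed without ZT3 replicate 3, at -0.35 (edgeR adjusted p = 0.0466), which makes 4 of 5 lower.

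Of 9 repressors tested 7 rose and none fell, and their median difference was 2.00 (log2). Ciart, which encodes the repressor CHRONO, was at 0, 0, 0.586 and 0 CPM at ZT0 and at 0.698, 0.502, 0.578 and 0 CPM at ZT3. It stood at 19.4, 29.0, 14.1 and 21.7 CPM at ZT12 and at 6.58, 5.94, 7.30 and 6.84 CPM at ZT15. The phases were far apart. The fitted rise of 4.73 ± 0.32 (log2, SE, edgeR adjusted p = 7.37e-11) rests on light values near 0, with 10 UMIs in the 8 light libraries and 277 in the dark ones. Per1 lay at 0 to 3.54 CPM in the light libraries, at 17.7, 12.6, 15.8 and 24.7 CPM at ZT12 and at 6.96, 5.54, 5.61 and 4.98 CPM at ZT15. Per2 lay at 1.16 to 9.44 CPM in the light, at 32.7, 17.4, 16.4 and 19.3 CPM at ZT12 and at 38.4, 33.9, 26.9 and 25.5 CPM at ZT15. Both period genes, which encode partners of the CRY repressors, were higher in every dark library than in any light one. Their rises were 2.60 ± 0.29 and 2.46 ± 0.26 (log2, SE, edgeR adjusted p = 5.05e-07 and 3.48e-06). Per1 had its higher dark values at ZT12, while those of Per2 overlapped between the dark times. Per3, the period gene with the D-boxes printed above, lay at 0 to 4.62 CPM in the light and 10.9 to 19.4 CPM in the dark, and rose by 3.27 ± 0.26, or 3.54 without ZT3 replicate 3.

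Of the other repressors, Nr1d2, which encodes REV-ERB beta, rose by 2.00 ± 0.23, Cry2, a partner of the period proteins, by 0.83 ± 0.18, and Bhlhe40, which encodes the E-box competitor DEC1, by 0.94 ± 0.22 (log2, SE). All 3 passed (edgeR adjusted p = 7.89e-06, 0.00388 and 0.0129) with some overlap between phases. The call of Bhlhe40 ended without the libraries with pancreas RNA (0.84, edgeR adjusted p = 0.123). It ended also without replicate 1 (0.0686), 2 (0.0819) or 4 (0.135). Without ZT3 replicate 3 the rise of Bhlhe40 was 1.20 (edgeR adjusted p = 7.83e-07). Nr1d1 and Cry1 did not pass. Nr1d1, which encodes REV-ERB alpha, lay at 1.00, 3.43, 0.234 and 0.590 CPM at ZT0, at 6.98, 8.53, 34.7 and 14.6 CPM at ZT3, at 11.5, 13.6, 6.77 and 5.42 CPM at ZT12 and at 3.95, 4.56, 6.73 and 7.47 CPM at ZT15. Its lowest libraries were those of ZT0 and its highest was ZT3 replicate 3. The difference was 0.84 ± 0.49 (log2, SE, edgeR adjusted p = 0.349). The plain means were 8.76 CPM in the light and 7.50 CPM in the dark, so the sign rests on averaging the log2 differences of the times, and 1 mean per phase gave -0.025 (edgeR adjusted p = 0.99). The difference passed without ZT3 replicate 3 (1.17, edgeR adjusted p = 0.044), which makes 8 of 9 higher. Cry1, the other cryptochrome, lay at 3.47 to 20.1 CPM in the light and 3.97 to 8.84 CPM in the dark, with a difference of -0.33 ± 0.24 (edgeR adjusted p = 0.474).

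The 4 genes of the PAR bZIP list, for the D-box activators DBP, TEF and HLF and their opponent NFIL3, all passed, 3 higher and 1 lower. Dbp lay at 5.52, 5.33, 3.75 and 2.36 CPM at ZT0 and at 4.19, 3.01, 33.5 and 4.18 CPM at ZT3. It lay at 143, 146, 104 and 202 CPM at ZT12 and at 39.1, 63.8, 72.4 and 54.8 CPM at ZT15. Every dark library was above every light one, the nearest pair being ZT3 replicate 3 and ZT15 replicate 1. The rise was 3.81 ± 0.45 (log2, SE, edgeR adjusted p = 0.000121), and 4.54 without ZT3 replicate 3, which moves the fold by over 1.5 times. Tef, at 8.36, 12.6 and 19.1 CPM in the light and 60.4, 69.1 and 82.0 CPM in the dark (lowest, median, highest), rose by 2.44 ± 0.14, again without overlap, and Hlf rose by 0.80 ± 0.12 with overlap. Nfil3, whose promoter holds the ROR core shown above, went the other way, from 4.05, 20.6 and 29.3 CPM to 3.97, 7.60 and 14.8 CPM. Its fall was 1.33 ± 0.26 on the log2 scale (edgeR adjusted p = 0.00227), and the difference was -1.47 without ZT3 replicate 3, its lowest light library.

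**Figure D1:**
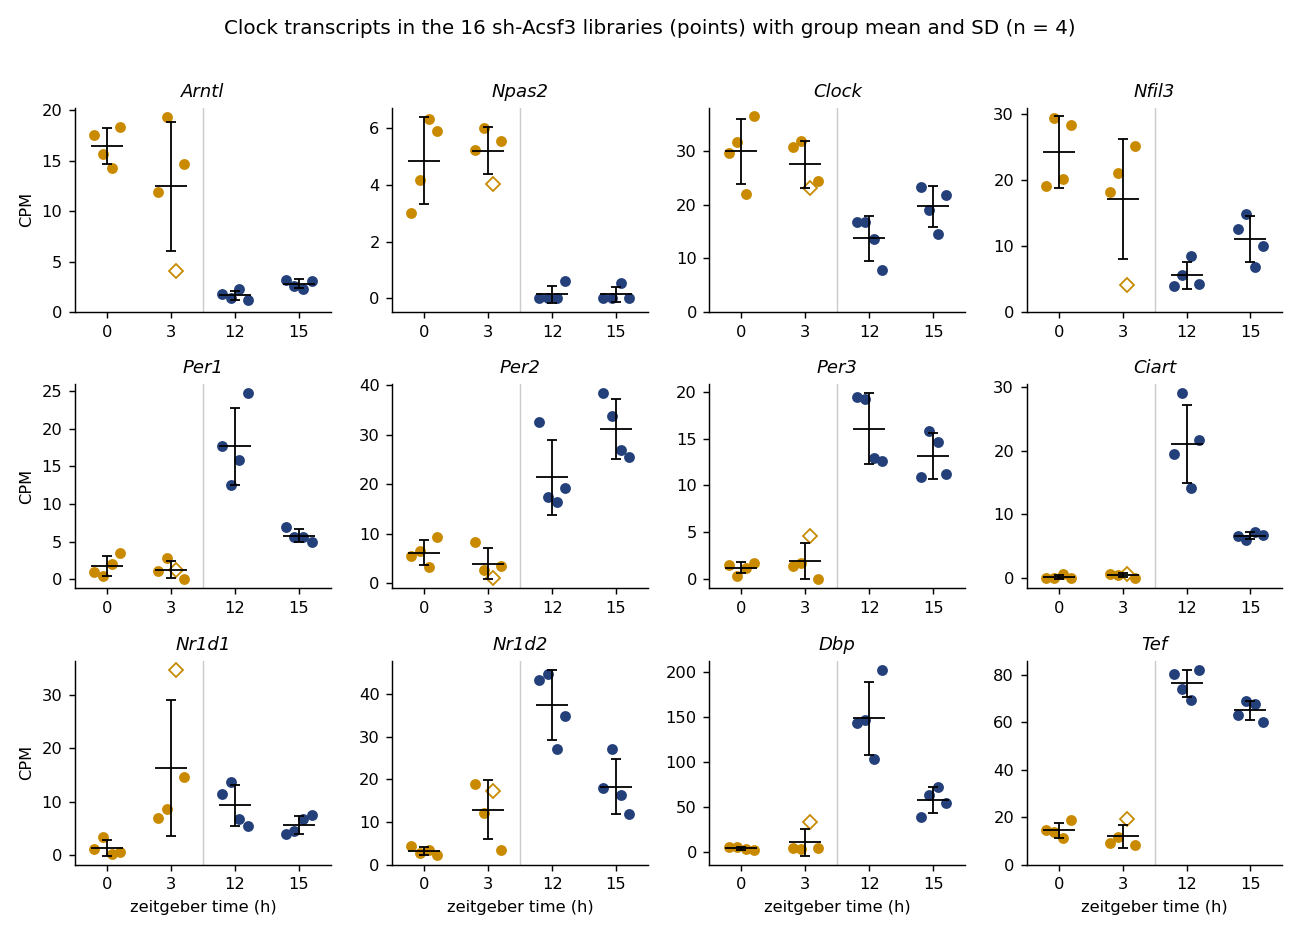
Levels (CPM, linear axes) of 12 clock genes in each of the 16 sh-Acsf3 libraries by zeitgeber time, with the mean and SD of each time (n = 4) in black and ZT3 replicate 3 as an open diamond. Arntl and Npas2 are high at ZT0 and ZT3 and low at ZT12 and ZT15, the Per genes, Ciart and Dbp are the other way round, and the diamond lies away from its group for Arntl, Nfil3, Nr1d1 and Dbp.

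Clock output genes moved in both directions, with 8 of 17 higher (47.1%) and 4 lower (23.5%), against 4.77% and 4.54% of all genes. Their median difference was 0.95 (log2), and the list was chosen with earlier results of these data known. Usp2, which encodes a deubiquitinase, lay at 3.14, 9.87 and 13.6 CPM in the light (lowest, median, highest) and at 60.8, 87.6 and 142 CPM in the dark, a rise of 3.37 ± 0.16 (log2, SE, edgeR adjusted p = 3.19e-13). Por, which passes electrons to microsomal cytochromes P450, rose by 1.93 ± 0.11 from 64.2 ± 9.29 to 245 ± 33.8 CPM (SD, n = 8 each, edgeR adjusted p = 1.18e-12). Wee1, a kinase that holds back mitosis, rose by 2.34 ± 0.17, Noct, which encodes nocturnin, by 2.61 ± 0.23, and Nampt, the rate-limiting enzyme of NAD salvage, by 1.37 ± 0.12. For each of these 5 genes no dark library overlapped a light one. Alas1, the first enzyme of haem synthesis, rose by 1.94 ± 0.46 (edgeR adjusted p = 0.0186). Its libraries overlapped, at 21.3 to 211 CPM in the light and 156 to 464 CPM in the dark. The call ended without the pancreas libraries (1.97, edgeR adjusted p = 0.0863). It ended also without replicate 1 (0.055), 2 (0.101), 3 (0.074) or 4 (0.0806). Tubb2a, a beta tubulin, fell by 2.09 ± 0.27 on the log2 scale from 142 ± 30.2 to 33.6 ± 15.0 CPM (SD, n = 8 each), without overlap. The other 3 falls, named here after their values were seen, were those of Avpr1a, a vasopressin receptor (-1.33 ± 0.20), Leo1, a subunit of the PAF complex (-1.12 ± 0.15), and Slc16a1, a monocarboxylate transporter (-0.68 ± 0.12).

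Among genes that averaged 5 CPM or more, 2 of the largest rises outside the clock lists were those of Pcsk4, a proprotein convertase, and Mfsd2a, a transporter of lysophosphatidylcholine. Pcsk4 lay at 0.696, 1.28 and 4.05 CPM in the light and 14.6, 18.1 and 20.6 CPM in the dark (lowest, median, highest) and rose by 3.39 ± 0.25 (log2, SE, edgeR adjusted p = 2.53e-10). Mfsd2a rose by 3.10 ± 0.43 (edgeR adjusted p = 0.000175), with 0 to 6.36 CPM in the light and 5.05 to 34.0 CPM in the dark. For both genes the highest light library was ZT3 replicate 3, and without it the rises were 3.75 and 3.48. Nrg4, a secreted growth factor of the neuregulin family, rose by 2.27 ± 0.26 from 2.37 to 10.3 CPM (medians).

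The largest falls were of enzymes and regulators of several compartments. Rnf125, a ubiquitin ligase, fell by 2.34 ± 0.15 on the log2 scale, from 76.2, 93.4 and 143 CPM in the light to 12.2, 21.1 and 27.7 CPM in the dark (lowest, median, highest). Clpx, the unfoldase subunit of the mitochondrial ClpXP protease, fell by 2.19 ± 0.12 from 121, 165 and 191 CPM to 24.1, 37.5 and 47.6 CPM, and Coq8a, which supports coenzyme Q synthesis in mitochondria, by 2.00 ± 0.14 from 225 to 54.0 CPM (medians). These 3 had no overlap between phases (edgeR adjusted p = 3.21e-11, 1.00e-12 and 1.17e-09). Grk5, a kinase of G protein-coupled receptors, fell by 2.38 ± 0.23, Asap2, an Arf GTPase-activating protein, by 2.25 ± 0.23, and Aqp8, a water channel of hepatocytes, by 2.02 ± 0.23. Lrfn3 fell by 2.32 ± 0.36, and smaller falls of the same set were those of Dtx4 (-1.84 ± 0.26), Denn2b (-1.75 ± 0.21) and Lgalsl (-1.74 ± 0.18).

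Fatty acid and triglyceride synthesis had 26 tested genes, of which 9 rose (34.6%) and 2 fell (7.69%), against 4.77% and 4.54% of all genes. The median difference was 0.33 (log2). The falls were larger than most of the rises. Elovl3, an elongase of very long-chain fatty acids, lay at 340.0, 369.5, 378 and 332 CPM at ZT0 and 298, 349, 253 and 402 CPM at ZT3, and at 8.39, 73.3, 34.4 and 37.4 CPM at ZT12 and 14.3, 22.4, 24.1 and 27.4 CPM at ZT15. Insig2, which holds the SREBP complex in the endoplasmic reticulum, lay at 142, 199 and 246 CPM in the light and 29.5, 41.7 and 65.2 CPM in the dark (lowest, median, highest). Both were lower in all 8 dark libraries, by 3.56 ± 0.32 and 2.16 ± 0.14 on the log2 scale (edgeR adjusted p = 8.13e-06 and 1.32e-10). Elovl6, which elongates palmitate, and Fads2, the delta-6 desaturase, rose by 1.47 ± 0.17 and 1.16 ± 0.16, again with no overlap. Lpin1, a phosphatidate phosphatase of triglyceride synthesis, rose by 2.19 ± 0.26 (edgeR adjusted p = 7.47e-05), with 295, 427, 176 and 698 CPM at ZT12, 132, 72.9, 135 and 129 CPM at ZT15 and 33.1 to 75.7 CPM in the light. Its ZT15 libraries lay below all those of ZT12, and the difference between these dark times did not pass (-1.77 ± 0.35, edgeR adjusted p = 0.0629). Without the pancreas libraries 6 genes of the list rose and 2 fell.

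Genes of cholesterol synthesis and uptake were called at about the share of all genes, 2 of 24 higher and 1 lower, with a median difference of -0.12 (log2). Hmgcs1, a synthase early in the pathway, fell by 1.21 ± 0.28 on the log2 scale (SE, edgeR adjusted p = 0.0174), while the sterol carrier Stard4 rose by 0.46 ± 0.12 (edgeR adjusted p = 0.00995). Without the pancreas libraries the calls of Hmgcs1 and Stard4 ended (edgeR adjusted p = 0.078 and 0.119). Scaling by library size only gave 4 higher and 1 lower, and leaving out 1 library at a time gave 2 to 4 higher and 1 to 3 lower, with 4 higher without ZT12 replicate 2 and 3 lower without ZT0 replicate 2 or 4.

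In bile acid synthesis and transport, with 18 genes tested, 4 rose (22.2%) and 2 fell (11.1%), against 4.77% and 4.54% of all genes. The median difference was -0.02 (log2). Cyp7a1, the rate-limiting enzyme of bile acid synthesis, lay at 130.4, 73.1, 184 and 57.8 CPM at ZT0, at 22.7, 52.2, 38.7 and 55.0 CPM at ZT3, at 165, 97.7, 109 and 146 CPM at ZT12 and at 164, 156, 139.7 and 183 CPM at ZT15. Its 4 lowest libraries were those of ZT3, and ZT0 overlapped the dark. The rise was 1.07 ± 0.24 (SE, edgeR adjusted p = 0.0138), made up of 0.20 between ZT0 and ZT12 and 1.94 between ZT3 and ZT15. It did not pass with 1 mean per phase (0.89, edgeR adjusted p = 0.142), nor without replicate 1 (0.0879) or 4 (0.0503). Abcg5, a sterol exporter at the canalicular membrane, rose by 1.03 ± 0.15, Abcc2, the canalicular exporter of conjugates, by 0.46 ± 0.12, and Nr1h4, the bile acid receptor FXR, by 0.35 ± 0.10. The call of Abcc2 ended without replicate 1 (edgeR adjusted p = 0.182) or 3 (0.098). The call of Nr1h4 (edgeR adjusted p = 0.0295) ended when ZT0 replicate 1, ZT3 replicate 2, ZT12 replicates 1 and 4 and ZT15 replicates 1 and 2 were left out singly, with adjusted p of 0.0584 to 0.0671, and without the pancreas libraries (0.254), with all 64 libraries (0.0536) and without a gene filter (0.0605). The falls, named here after their values were seen, were those of Nr0b2, a repressor induced by FXR (-0.83 ± 0.23, edgeR adjusted p = 0.0363), and Cyp2c70, which makes muricholic acids in mice (-0.79 ± 0.22, edgeR adjusted p = 0.0384). Leaving out 1 library at a time gave 0 to 2 falls, with 2 only when ZT0 replicate 2, ZT0 replicate 4 or ZT15 replicate 3 was left out, and leaving out the pancreas libraries gave 3 rises and no fall.

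Genes of glycolysis and sugar use moved upwards, 5 of 15 and none lower (33.3% against 4.77% of all genes), with a median difference of 0.31 (log2). Slc2a2, the glucose transporter GLUT2, rose by 0.84 ± 0.11 (SE) from 119, 156 and 220.3 CPM to 229.5, 274 and 415 CPM (lowest, median, highest). Gckr, a regulator of sugar use in hepatocytes, rose by 0.67 ± 0.10 from 39.0 to 58.8 CPM (medians). In both the phases did not overlap. Pfkfb3, which makes an activator of phosphofructokinase, rose by 1.20 ± 0.26 from 3.64 to 6.94 CPM (medians). The edgeR adjusted p were 5.40e-06, 7.23e-05 and 0.00251, and Pfkfb3 did not pass with all 64 libraries (0.0513) or without replicate 2 (0.0837).

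Of 13 glycogen genes 4 rose (30.8%) and 1 fell (7.69%), against 4.77% and 4.54% of all genes, with a median difference of 0.22 (log2). Gys2, the liver glycogen synthase, lay at 95.8, 124, 111 and 98 CPM at ZT0, 76.8, 69.8, 98.9 and 89.8 CPM at ZT3, 245, 244, 226 and 239 CPM at ZT12 and 372, 319, 258 and 359.6 CPM at ZT15. No libraries of the 2 phases overlapped, and all 4 values of ZT15 were above those of ZT12. The rise was 1.56 ± 0.10 (SE, edgeR adjusted p = 2.14e-11). Ppp1r3c, a subunit that brings protein phosphatase 1 to glycogen, fell by 1.99 ± 0.24 on the log2 scale, from 14.0, 32.7 and 63.2 CPM to 3.53, 9.94 and 13.7 CPM (lowest, median, highest). Ugp2, which makes UDP-glucose, Gbe1, the branching enzyme, and Ppp1r3b, another targeting subunit named here after its value was seen, rose by 0.59 ± 0.13, 0.43 ± 0.12 and 0.50 ± 0.14. Gbe1 did not pass when ZT3 replicate 2, ZT12 replicate 4 and ZT15 replicate 4 were left out singly (edgeR adjusted p = 0.0507 to 0.0628). Ugp2 and Gbe1 did not pass without the pancreas libraries (0.055 and 0.0562), when 2 of the 13 rose, and 2 rose also without ZT15 replicate 4.

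In gluconeogenesis and fasting, with 17 genes tested, 4 rose (23.5%) and 1 fell (5.88%), against 4.77% and 4.54% of all genes. The median difference was 0.14 (log2). Slc37a4, the transporter that feeds glucose 6-phosphatase, rose by 0.81 ± 0.15 (SE, edgeR adjusted p = 0.00159), and Sds, serine dehydratase, by 0.75 ± 0.18. Pck1, the cytosolic phosphoenolpyruvate carboxykinase, named here after its value was seen, rose by 1.03 ± 0.29 (edgeR adjusted p = 0.0432), with 1.99 between ZT0 and ZT12 and 0.08 between ZT3 and ZT15. Irs2, an adaptor of the insulin receptor, fell by 0.88 ± 0.18 on the log2 scale from 16.3 to 8.38 CPM (medians). Klf15, a transcription factor of fasting, rose by 0.38 ± 0.11 (edgeR adjusted p = 0.0355), a call that ended when ZT0 replicate 1, ZT3 replicates 1 and 4, ZT12 replicate 2 and ZT15 replicates 1 and 4 were left out singly (0.0529 to 0.109) and with 1 mean per phase (0.0587). Without the pancreas libraries 1 gene of the 17 rose, and the edgeR adjusted p of Sds and Klf15 were 0.0633 and 0.325. The count was 2 when ZT0 replicate 1, ZT3 replicate 4, ZT12 replicate 2 or ZT15 replicate 1 or 4 was left out.

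In fatty acid oxidation and among PPAR alpha targets 7 of 25 genes rose (28%) and 1 fell (4%), against 4.77% and 4.54% overall among the genes tested. The median difference was 0.24 (log2). Cpt1a, the entry step of long-chain fatty acids into mitochondria, rose by 0.79 ± 0.12 (SE) from 88.7, 114 and 164 CPM to 157, 186 and 283 CPM (lowest, median, highest, edgeR adjusted p = 8.04e-05). Ppara, the receptor itself, rose by 0.83 ± 0.16 and Fabp1, the abundant liver fatty acid binding protein, by 0.52 ± 0.11 from 5520.0 ± 824 to 7956 ± 1375 CPM (SD, n = 8 each). Plin2, which coats lipid droplets, fell by 0.88 ± 0.14 on the log2 scale. Without the pancreas libraries 3 genes rose, and Ppara and Fabp1 did not pass (edgeR adjusted p = 0.0725 and 0.0654).

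**Figure D2:**
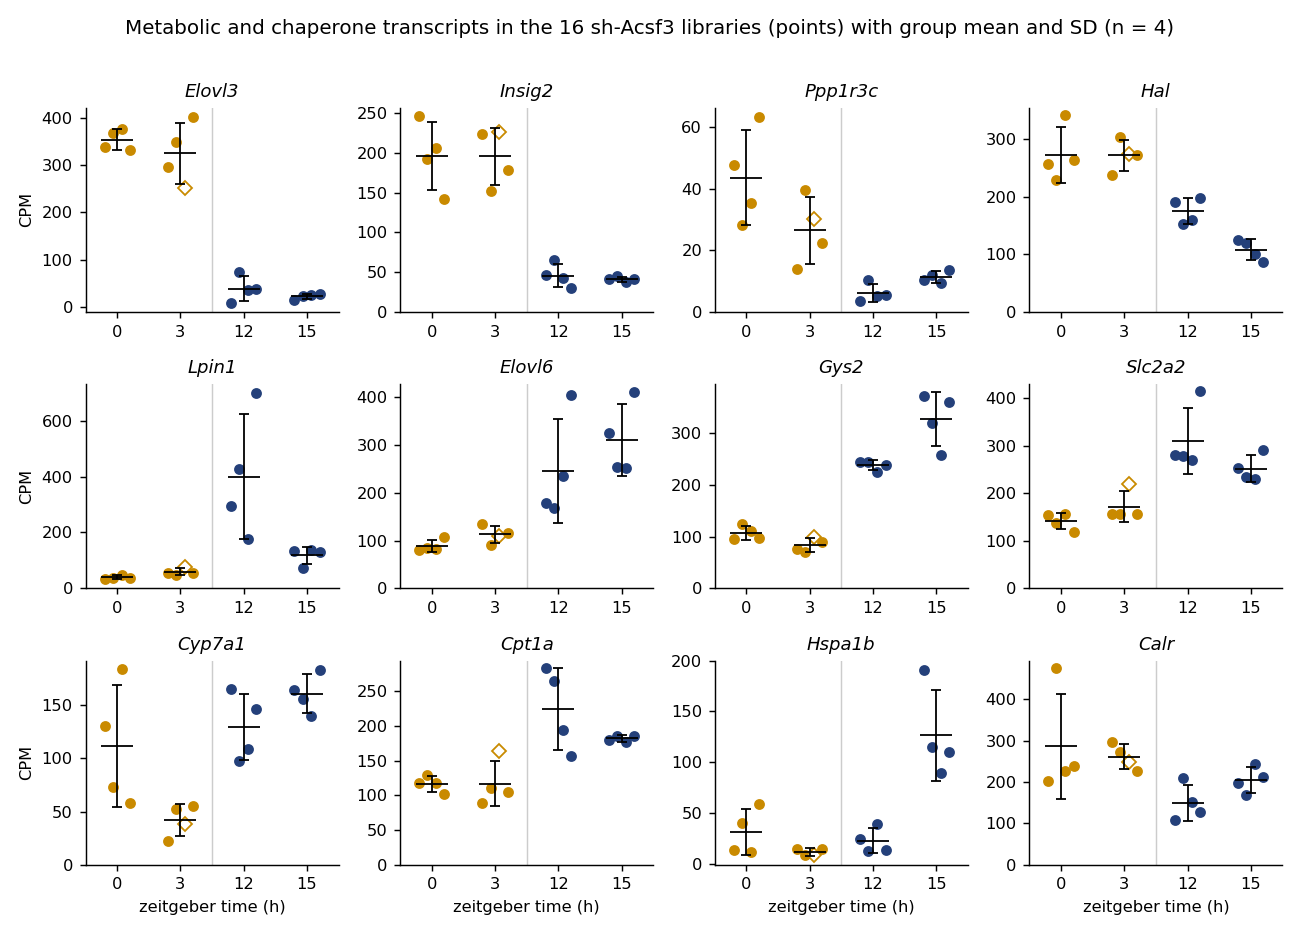
Levels (CPM, linear axes) of 12 metabolic and chaperone genes in each of the 16 sh-Acsf3 libraries by zeitgeber time, with the mean and SD of each time (n = 4) in black and ZT3 replicate 3 as an open diamond. Elovl3, Insig2 and Ppp1r3c are high in the light and low in the dark, Gys2 is the other way round, Cyp7a1 is lowest at ZT3, and Hspa1b is high at ZT15 alone.

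Of 29 amino acid genes 3 rose (10.3%) and 2 fell (6.9%), against 4.77% and 4.54% of all genes. The median difference was -0.005 (log2). The falls were those of Hal, histidine ammonia-lyase, by 0.98 ± 0.10 on the log2 scale (edgeR adjusted p = 1.93e-07), and Cth, which makes cysteine from cystathionine, by 0.45 ± 0.10 (edgeR adjusted p = 0.00314). Neither overlapped between phases, and the call of Cth ended without the pancreas libraries (edgeR adjusted p = 0.0806). Mat1a, which makes S-adenosylmethionine in the liver, rose by 0.44 ± 0.12 (SE), Sds as given above, and Gpt2, a mitochondrial alanine transaminase named here after its value was seen, by 0.43 ± 0.11. Without ZT12 replicate 4 the falls were 4.

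Of 11 glucocorticoid targets and metallothioneins 4 rose (36.4%) and 1 fell (9.09%), against 4.77% and 4.54% of all genes. The median difference was 0.30 (log2). Fkbp5, a co-chaperone of the glucocorticoid receptor, lay at 7.52, 12.3 and 15.4 CPM in the light and 26.5, 40.6 and 60.7 CPM in the dark (lowest, median, highest) and rose by 1.79 ± 0.15 (SE, edgeR adjusted p = 3.66e-09). Pim3, a kinase, and Tsc22d3, which encodes GILZ, rose by 1.21 ± 0.24 and 0.94 ± 0.19, and so did Dusp1, a phosphatase of MAP kinases named here after its value was seen (0.54 ± 0.14). Cdkn1a, which encodes the inhibitor p21, fell by 1.65 ± 0.38 on the log2 scale from 11.5 to 3.34 CPM (medians), and did not pass without the pancreas libraries (-1.13, edgeR adjusted p = 0.0699). Among 20 xenobiotic genes only Cyp2a5, a cytochrome P450, passed (5% higher, against 4.77% of all genes). It rose by 1.51 ± 0.18 from 113, 217 and 368 CPM to 421, 598 and 964 CPM, without overlap. The median of that list was 0.12, 3 of its genes rose with library size only, and leaving out 1 library at a time gave 1 to 3, with 3 without ZT3 replicate 4.

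The heat shock list had 2 of 19 genes higher (10.5%) and none lower, against 4.77% and 4.54% of all genes. Its median difference was 0.11 (log2). Hspa1b, an inducible HSP70 gene whose reads cannot be told apart with certainty from those of its near-identical copy Hspa1a, lay at 13.5, 40.4, 11.8 and 59.0 CPM at ZT0, 14.7, 8.28, 8.67 and 14.6 CPM at ZT3, 24.3, 12.6, 39.5 and 13.9 CPM at ZT12 and 191, 115, 89.2 and 110.1 CPM at ZT15. Only the ZT15 libraries stood above all the rest. The rise over the phases was 1.53 ± 0.39 (SE, edgeR adjusted p = 0.0276), with -0.42 between ZT0 and ZT12 and 3.48 between ZT3 and ZT15. It was lost when ZT3 replicates 2 and 3, ZT12 replicates 1 and 3 and ZT15 replicate 1 were left out singly (edgeR adjusted p = 0.0506 to 0.0654) and without the pancreas libraries (0.137) and with 1 mean per phase (0.0763). Dnajb1, its HSP40 partner, rose by 0.70 ± 0.21 (edgeR adjusted p = 0.0402), a call that ended with 10 of the 16 single libraries left out, ZT0 replicates 1 and 3, ZT3 replicates 3 and 4, ZT12 replicates 1, 2 and 3 and ZT15 replicates 1, 2 and 4 (0.0607 to 0.105), with 1 mean per phase (0.154), with library size only (0.0578) and in DESeq2 (0.0617). Leaving out 1 library at a time gave 0 to 4 rises in the list, with 4 without ZT3 replicate 1 and 0 without ZT3 replicate 3, ZT12 replicate 1 or 3 or ZT15 replicate 1, and none of the 19 passed without the pancreas libraries. Hspb1, which encodes the small chaperone HSP27, differed by -0.41 ± 0.16 (edgeR adjusted p = 0.118) and passed without ZT12 replicate 3 (-0.56, edgeR adjusted p = 0.0259).

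Of 25 genes for endoplasmic reticulum chaperones and unfolded protein response 2 rose (8%) and 4 fell (16%), against 4.77% and 4.54% of all genes. The median difference was -0.25 (log2). Pdia4 and Pdia6, disulfide isomerases, fell by 0.58 ± 0.12 and 0.45 ± 0.13 on the log2 scale, Sdf2l1, a chaperone component, by 0.99 ± 0.21, and Calr, calreticulin, named here after its value was seen, by 0.64 ± 0.17. Herpud1, a part of the degradation machinery, rose by 0.63 ± 0.16, and Atf6, a sensor of unfolded protein, also named after its value was seen, by 0.36 ± 0.12 (edgeR adjusted p = 0.0485). Pdia6 (edgeR adjusted p = 0.026) did not pass when ZT3 replicate 1, ZT12 replicates 1 and 3 and ZT15 replicate 3 were left out singly (0.0552 to 0.0593), nor with library size only (0.14), and Herpud1 did not without the pancreas libraries (0.0587). The falls were 2 to 5 with 1 library left out, with 2 without ZT3 replicate 1, ZT12 replicate 1 or ZT12 replicate 3, and the rises were 1 in 13 of those 16 fits.

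Acute phase and iron genes had 4 of 21 members lower (19%) and 1 higher (4.76%), against 4.54% and 4.77% of all genes. The median difference was -0.18 (log2). The 3 fibrinogen chains, secreted by hepatocytes for clotting, fell together. Fgb fell by 0.57 ± 0.10 on the log2 scale from 4632 ± 642 to 3112 ± 274 CPM, Fgg by 0.56 ± 0.10 from 2854 ± 436 to 1927 ± 215 CPM and Fga by 0.44 ± 0.09 from 2850.0 ± 471 to 2090.0 ± 224 CPM (SD, n = 8 each). Lbp, which binds bacterial lipopolysaccharide, fell by 0.49 ± 0.12. Their edgeR adjusted p were 0.000211, 0.000492, 0.00283 and 0.0105. The Lbp call ended with all 64 libraries (0.0681) and without replicate 1 (0.0663) or 4 (0.0591). The rise was that of Hamp, the iron hormone hepcidin, named here after its value was seen (0.34 ± 0.11, edgeR adjusted p = 0.0448), which was lost in 12 of the 16 fits with 1 library left out and without the pancreas libraries.

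The cell cycle list had 12 tested genes, 4 of which rose (33.3%) while none fell, against 4.77% and 4.54% of all genes. Its median difference was 0.64 (log2). Ccne1, cyclin E1, rose by 2.44 ± 0.41 (SE, edgeR adjusted p = 0.000176) from 0, 0.850 and 1.77 CPM to 1.98, 4.39 and 9.72 CPM (lowest, median, highest), on 19 UMIs in the light and 95 in the dark. Rrm2, a subunit of ribonucleotide reductase, Mcm4, of the replicative helicase, and Ccnd1, cyclin D1, rose by 0.75 ± 0.18, 0.92 ± 0.24 and 0.64 ± 0.17. Of these 4 only Ccne1 had no overlap between phases. The edgeR adjusted p of the other 3 were 0.00674, 0.0132 and 0.0192. All 3 calls ended without replicate 1 (0.129, 0.171 and 0.121), that of Mcm4 also without replicate 2 (0.0741) or 3 (0.108), and that of Ccnd1 without replicate 3 (0.127) or 4 (0.0877). In a fit of all 64 libraries Rrm2 (0.091) and Mcm4 (0.0671) did not pass.

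In several lists 1 gene moved in a direction or none, against 4.77% of all genes that rose and 4.54% that fell. In the lists below 1 call is 5.88% of 17 genes or 9.09% of 11, and it says little about the list. Bnip3, a mitophagy receptor, was the riser of 17 autophagy and lysosome genes, by 1.05 ± 0.09 (log2, SE, edgeR adjusted p = 6.43e-09), from 77.9, 86.4 and 110.5 CPM to 154, 176 and 248 CPM (lowest, median, highest). Gadd45a, a stress-inducible gene of growth arrest, was the riser of 11 immediate early genes, by 1.14 ± 0.19. Myc, a growth factor-induced transcription factor, differed by 1.51 ± 0.45 without passing (edgeR adjusted p = 0.0554), and passed when ZT0 replicate 1, ZT3 replicate 4, ZT12 replicate 2 and ZT15 replicate 2 were left out singly (0.0111 to 0.0475) and without the pancreas libraries (2.09, edgeR adjusted p = 0.0253). Among 17 genes of sirtuins and NAD metabolism Nmrk1, nicotinamide riboside kinase, rose by 1.28 ± 0.18 and Afmid, kynurenine formamidase, fell by 0.81 ± 0.20 on the log2 scale. The Afmid call was lost without ZT3 replicate 2 (edgeR adjusted p = 0.0861) and without the pancreas libraries (0.261).

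In the pathway of Acsf3, 15 genes of malonyl-CoA and mitochondrial fatty acid synthesis, the only call was Pdhx, a subunit of the pyruvate dehydrogenase complex. This is 6.67% higher, against 4.77% of all genes. Pdhx rose by 0.51 ± 0.15 (log2, SE, edgeR adjusted p = 0.0253), which was lost when ZT0 replicate 1, ZT3 replicate 2 and ZT12 replicate 2 were left out singly (0.0508 to 0.0681), without the pancreas libraries (0.357) and in DESeq2 (0.0526). The list's median difference was 0.05. None of 75 cytosolic ribosomal proteins, 60 genes for respiratory chain complexes and the ATP synthase, 21 of ribosome biogenesis or 11 major urinary proteins passed, with medians of -0.03, -0.04, 0.21 and -0.32. With 1 library left out at a time up to 2 genes of ribosome biogenesis rose and up to 3 of autophagy and lysosome fell. A missed threshold does not show that the levels of their members were equal, and the major urinary proteins are near-identical copies whose counts are uncertain one by one.

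Markers of other liver cell types were mostly not called. Of all genes 4.77% rose and 4.54% fell, so 1 call in so short a list says little about its cell type. Of the 11 hepatocyte markers Fabp1 passed and rose (9.09%). The 1 fall of each list named next is 8.33% of the stellate, 20% of the lymphocyte, 9.09% of the endothelial and 50% of the cholangiocyte markers. Pdgfrb, of 12 stellate cell and fibroblast markers, Ighm, of 5 lymphocyte markers, Eng, of 11 sinusoidal endothelial markers, and Sox9, of 2 cholangiocyte markers, fell, at -0.74 ± 0.20, -1.04 ± 0.24, -0.43 ± 0.13 and -1.19 ± 0.19 (log2, SE, edgeR adjusted p = 0.0151, 0.00639, 0.0402 and 0.000245). None of 10 Kupffer cell, 2 neutrophil and monocyte, 5 red blood cell, 17 exocrine pancreas or 1 adipose markers tested passed, with medians of -0.14, -0.26, 0.19, -3.06 and -0.29. The summed stellate markers were 383 to 674 CPM in the light and 448 to 989 CPM in the dark, the lymphocyte markers 67.0 to 105 and 28.8 to 102 CPM, the endothelial markers 298 to 330.4 and 221 to 326 CPM and the cholangiocyte markers 79.1 to 138 and 73.8 to 117 CPM. The sums thus overlapped between phases. The Eng call was lost with 11 of the 16 single libraries left out, ZT0 replicates 1, 2 and 3, ZT3 replicates 2, 3 and 4, ZT12 replicates 1 and 2 and ZT15 replicates 1, 2 and 4 (edgeR adjusted p = 0.0561 to 0.0979). With library size only Eng (0.0838) and Pdgfrb (0.0594) did not pass, nor did Eng in DESeq2 (0.0551) or without replicate 1 (0.127), 2 (0.268) or 3 (0.0705). Ighm did not pass with all 64 libraries (edgeR adjusted p = 0.134) or without replicate 1 (0.071) or 2 (0.0722), nor Pdgfrb without replicate 2 (0.14) or 4 (0.0659). Eng and Pdgfrb did not pass without the pancreas libraries (0.441 and 0.131). The part of cell composition in the other results was not tested.

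The contrast can be taken apart into the pair ZT12 and ZT0 and the pair ZT15 and ZT3, which share no library. ZT12 minus ZT0 gave 340 calls (3.98%), 174 higher (2.04%) and 166 lower (1.94%), and ZT15 minus ZT3 gave 467 (5.46%), 220 higher (2.57%) and 247 lower (2.89%). In both pairs and in the same direction 62 genes rose (0.725%) and 68 fell (0.796%), and none was called in opposite directions. These 130 genes are 38.2% of the calls of the first pair and 27.8% of those of the second. Without the pancreas libraries the pairs gave 214 and 155 calls. Leaving out ZT15 replicate 1 or ZT3 replicate 2 lowered the count of ZT15 minus ZT3 to 259 and 274.

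Within the dark, 20 genes differed between ZT15 and ZT12 (0.234%), 8 higher (0.0936%) and 12 lower (0.140%) at ZT15. Ciart fell by 1.70 ± 0.26 on the log2 scale, Slc7a2, a cationic amino acid transporter, by 1.31 ± 0.21, Klhl24, a member of the kelch-like family, by 1.04 ± 0.17 and Amdhd1, of the histidine pathway, by 0.79 ± 0.13, while Hspb1 rose by 1.46 ± 0.24 (SE, edgeR adjusted p = 0.00567 for each). Slc7a2 lay at 380.2, 278, 211 and 283 CPM at ZT12 and 109, 97.8, 141 and 119.5 CPM at ZT15, beside 73.9 to 153 CPM in the light. Hspb1 lay at 6.18, 9.42, 15.2 and 6.63 CPM at ZT12 and 24.6, 23.6, 27.5 and 28.0 CPM at ZT15, beside 14.3 to 30.1 CPM in the light. ZT12 was thus the high time of Slc7a2 and the low time of Hspb1. Amdhd1 lay at 105 to 156 CPM at ZT12 and 67.2 to 83.6 CPM at ZT15, and Klhl24 at 28.8 to 44.3 and 16.2 to 24.7 CPM. In the heat shock list 3 genes rose between these times, Hspb1 and, named here after their values were seen, Hsp90ab1, the constitutive HSP90 beta (0.67 ± 0.13, edgeR adjusted p = 0.0194), and Bag3, a co-chaperone of HSP70 (1.30 ± 0.27, edgeR adjusted p = 0.0369). The median of its 19 genes was 0.81. The calls of Ciart, Slc7a2, Klhl24, Amdhd1 and Hspb1 all ended without replicate 1 (edgeR adjusted p = 0.0726, 0.141, 0.159, 0.14 and 0.14). Without replicate 2, and without replicate 4, those of Klhl24, Amdhd1 and Hspb1 ended too, while that of Ciart ended without replicate 2 and that of Slc7a2 without replicate 4. Hspb1 did not pass with all 64 libraries (0.0858), nor Klhl24 without the pancreas libraries (0.0509). The count of 20 moved with single libraries. It was 10 without ZT12 replicate 1 or 4, 42 without ZT12 replicate 3, and 9, 12 and 7 without ZT15 replicates 1, 2 and 4, and 9 without the pancreas libraries. DESeq2 gave 37 calls and limma-voom 20.

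Within the light, no gene passed between ZT3 and ZT0 in edgeR (0%), with 487 at an unadjusted p below 0.05 (5.70%), while DESeq2 called 6 and limma-voom 0. The 5 genes with the smallest p in edgeR were Junb, Banp, Nr1d2, Wdr43 and Nat10, each with an adjusted p of 0.13. Junb, an AP-1 subunit, lay at 9.53, 18.3, 11.5 and 7.67 CPM at ZT0 and 24.1, 26.1, 22.6 and 34.1 CPM at ZT3, a difference of 1.14 ± 0.22 (log2, SE). Nr1d2 lay at 4.51, 2.67, 3.52 and 2.36 CPM at ZT0 and 18.9, 12.0, 17.3 and 3.48 CPM at ZT3, a difference of 2.00 ± 0.38. For both genes every ZT3 library but ZT3 replicate 4 in Nr1d2 was above all ZT0 libraries. Without ZT3 replicate 4 the difference of Nr1d2 passed at 2.22 (edgeR adjusted p = 0.00116), and that of Junb passed without ZT0 replicate 2 (edgeR adjusted p = 0.0167). The count was 2 without ZT0 replicate 2, 4 without ZT3 replicate 3, and 1 without ZT3 replicate 4 or without the pancreas libraries.

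**Figure D3:**
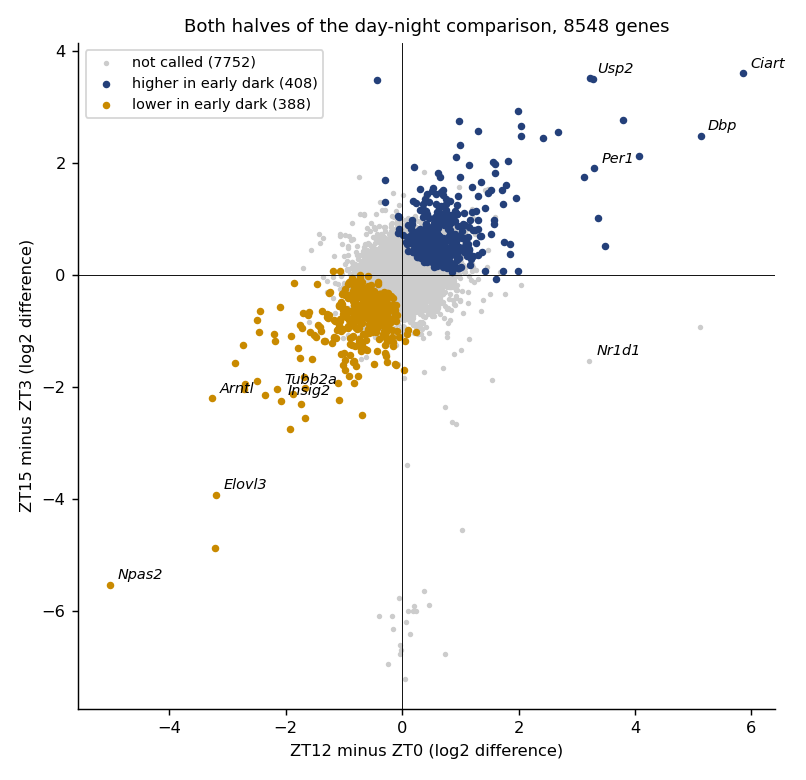
ZT15 minus ZT3 (vertical axis, log2 difference) against ZT12 minus ZT0 (horizontal axis, log2 difference) for the 8548 genes tested in sh-Acsf3, with blue for genes called higher and orange for genes called lower in the early dark, and grey for the rest. Of the 796 called genes 781 (9.14% of the genes tested) have the same sign in both pairs and 15 (0.175%) have opposite signs. The calls were made on the mean of both differences, so a shared sign is largely built in and is no replication.

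To ask whether the knockdown altered this change, sh-Acsf3 and sh-Ctl were fitted together over 9694 genes. In sh-Acsf3 939 genes passed (9.69%), 476 higher (4.91%) and 463 lower (4.78%), and in sh-Ctl 1068 (11.0%), 527 higher (5.44%) and 541 lower (5.58%). The treatments share 553 calls, 58.9% of those of sh-Acsf3 and 51.8% of those of sh-Ctl, and all 553 had the same direction in both. No gene passed the edgeR test of the difference between the treatments (0%), with 602 at an unadjusted p below 0.05 (6.21%) and a smallest adjusted p of 0.659. DESeq2 and limma-voom also called 0, with 564 and 676 at an unadjusted p below 0.05, and edgeR without a gene filter called 96. With library size only the split of sh-Ctl was 610 higher and 393 lower. Across the 1454 genes called in either treatment, which are not independent and share the scaling of 1 fit, Pearson's r of the differences was 0.833, and it was 0.519 across all genes.

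For the clock the values of both treatments lay side by side. Arntl differed by -2.73 ± 0.30 in sh-Acsf3 and -2.84 ± 0.30 in sh-Ctl (log2, SE), Ciart by 4.74 ± 0.34 and 4.25 ± 0.34, and Per3 by 3.27 ± 0.27 and 2.87 ± 0.27. Dbp differed by 3.82 ± 0.36 and 3.83 ± 0.35, and the elongase gene Elovl3 by -3.56 ± 0.29 and -3.45 ± 0.29. The difference between treatments was 0.10 ± 0.43 for Arntl, 0.48 ± 0.67 for Ciart, 0.41 ± 0.45 for Per3, -0.01 ± 0.59 for Dbp and -0.11 ± 0.38 for Elovl3. None of these passed, and their errors do not show that the treatments were alike. Cry2 was called in sh-Acsf3 (0.82 ± 0.18) and not in sh-Ctl (0.37 ± 0.17, edgeR adjusted p = 0.183), with a difference of 0.46 ± 0.25 that did not pass (edgeR adjusted p = 0.827).

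Some lists gave other counts in sh-Ctl, while no member was called for the difference between treatments. Of all genes in this fit 5.44% rose and 5.58% fell in sh-Ctl, against 4.91% and 4.78% in sh-Acsf3. A gene called in 1 treatment alone is no difference between them. In sh-Ctl 8 of the 21 genes of ribosome biogenesis rose and none fell, against 1 and 0 in sh-Acsf3 from the same fit, with medians of 0.34 and 0.21. In cholesterol synthesis and uptake 1 rose and 10 fell in sh-Ctl, against 2 and 2, with medians of -0.39 and -0.13 (log2). In the acute phase and iron list 4 rose and none fell in sh-Ctl, against 0 and 3, with medians of 0.38 and -0.18. Saa1, which encodes serum amyloid A1, was found at 25.5 to 4351 CPM in the dark sh-Ctl libraries, 2 of them above 1000 CPM, and at 27.1 to 121 CPM in the dark sh-Acsf3 libraries. Without those 2 libraries none of the acute phase and iron genes rose in sh-Ctl and 6 fell, with a median of -0.29, while ribosome biogenesis had 7 rises and cholesterol synthesis and uptake 1 rise and 10 falls.

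The 10 genes with the smallest p for the difference between treatments, none of which passed (edgeR adjusted p = 0.659 for each), were Map11, Snhg17, Mepce, Gata4, Ddx28, Gramd4, Esrp2, Sfxn5, Nudt16 and Adar. Gata4, a transcription factor of liver development, differed by -0.16 ± 0.15 in sh-Acsf3 and -0.95 ± 0.14 in sh-Ctl, a difference between treatments of 0.79 ± 0.21 (log2, SE). Adar, which encodes an RNA-editing deaminase, differed by 0.17 ± 0.17 and -0.67 ± 0.15, and Esrp2, a splicing factor of epithelia, by -0.05 ± 0.10 and -0.57 ± 0.10. Sfxn5, of the sideroflexin family of mitochondrial carriers, differed by -0.84 ± 0.17 in sh-Acsf3 and 0.02 ± 0.16 in sh-Ctl, and Ddx28, a mitochondrial RNA helicase, by -0.50 ± 0.13 and 0.21 ± 0.13.

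**Figure D4:**
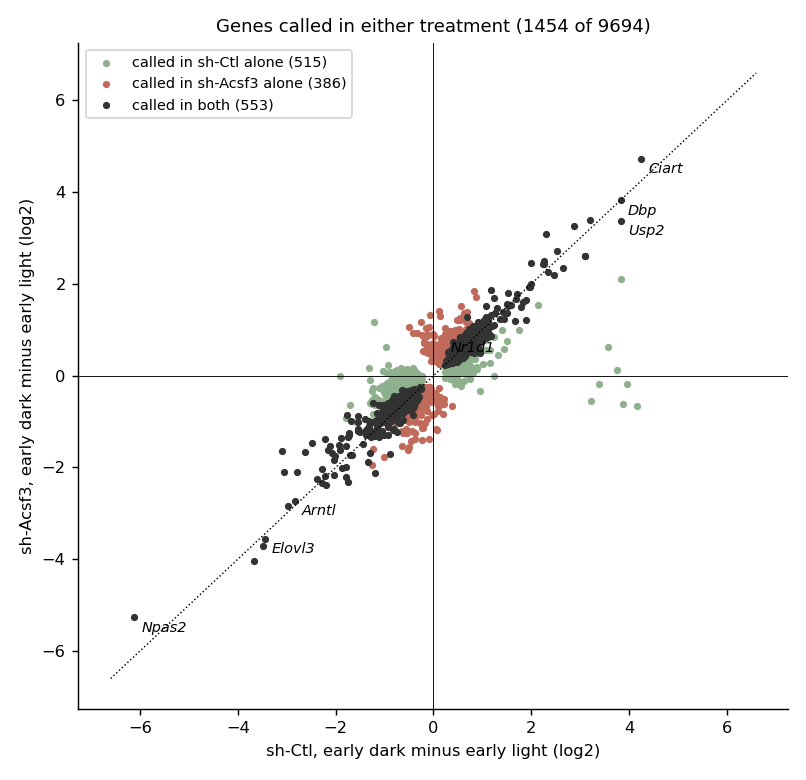
Early dark minus early light difference (log2) in sh-Acsf3 (vertical axis) against that in sh-Ctl (horizontal axis) for the 1454 of 9694 genes called in either treatment, coloured by where they were called, with a dotted line where both are equal. All 553 genes called in both have the same sign in both treatments.

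Promoter letters were compared between the called genes and all genes tested, with no test. Windows from 250 bases before to 50 bases after the start were found in the RefSeq table for 6842 of the 8548 genes, and a gene was counted when any of its windows held the motif on either strand. The E-box CACGTG was in 15.5% of the genes that rose (50 of 322) and 12.8% of those that fell (39 of 305), against 12.2% of all. Among genes at least 2-fold higher it was in 13 of 57 (22.8%), among them Ciart, Per1, Tef, Fkbp5, Bnip3 and Pfkfb3, and among those at least 2-fold lower in 4 of 57 (7.02%). The D-box, TTATGTAA or TTACGTAA, was in 2.80% of the genes that rose (9) and 0.984% of those that fell (3), against 1.07% of all. The ROR core TAGGTCA was in 1.86% (6) and 4.92% (15), against 2.59%. The 6 genes at least 2-fold lower with a ROR core were Arntl, Nfil3, Leo1, Dhrs9, Magix and Tjp3, the last 4 named after the match was seen, and none of those at least 2-fold higher held it. Heat shock element cores (GAANNTTC or TTCNNGAA) were in 10.6% of rises and 14.1% of falls, against 13.9%, the cyclic AMP element TGACGTCA in 3.11% and 2.95%, against 3.70%, and the sterol element TCACNCCAC in 0.621% and 1.31%, against 1.59%. The called genes had slightly more windows each, 1.33 for rises and 1.39 for falls against 1.28 for all, and the counts behind the D-box and ROR shares are small.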

How the data were processed

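Liver RNA of 64 libraries (2 treatments, 8 times, 4 replicates) was measured by BRB-seq, and 32 libraries were used here, 16 of each treatment. The deposited table holds raw counts of UMIs for 55487 genes, with no normalization by the authors. Per the submitters' processing notes the reads were aligned with STAR to GRCm38 (mm10). The STAR version, the annotation used and how UMIs were collapsed are not given in the sources used here. A 3′ count does not scale with transcript length, so levels of different genes were not compared.

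Counts were scaled by TMM and tested with edgeR 4.0.16 (R 4.3.3) by robust quasi-likelihood fits with 1 mean per treatment and time, after filterByExpr (minimum count 10, minimum total 15), with Benjamini-Hochberg adjustment over all genes tested and a threshold of 0.05. The phase contrast is the mean of ZT12 and ZT15 minus the mean of ZT0 and ZT3, with 12 residual degrees of freedom. A fit of 32 libraries (24 residual degrees of freedom) gave sh-Ctl and the difference between treatments. The SE is the absolute log2 difference divided by the root of the F statistic. CPM were computed with the TMM-scaled library sizes. Of 707 listed genes 614 passed the filter. A gene that passed it may have done so through the phase where it is high, as Npas2 did in the light and Ciart and Ccne1 in the dark. The p-values of such genes are given as a description.

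Named genes were Acsf3, all tested clock genes, the 15 largest rises and 15 largest falls that averaged 5 CPM or more and had the same sign in both pairs of times, up to 4 genes of every other list with the smallest p, the 5 genes with the smallest p within each phase and the 10 with the smallest p for the difference between treatments. A few genes that this rule or a list holds are not reported here, though they stay in the counts over lists and over all genes. The members, lists and tests were chosen with earlier results of these data known. Alternatives were other scaling, filters, DESeq2 1.42.0, limma 3.58.1 (voom), the replicate number as a block, all 64 libraries, 1 mean per phase and leaving out libraries. After the data were seen, ZT3 replicate 3 was also left out of the fit of 32 libraries, and the value of Acsf3 was recomputed without each sh-Acsf3 library and without the pancreas libraries. Both were tried on simulated counts with 200 genes changed. The phase contrast found 2%, 54%, 90% and 96% of 50 genes each at 1.25-, 1.5-, 2- and 4-fold, with 6 false of 127 calls. The difference between treatments found 0%, 16%, 62% and 94%, with 7 false of 93. The simulated counts had the fitted dispersions and, apart from the changed genes, 1 mean per gene over all libraries. They held no library with pancreas RNA or like ZT3 replicate 3, so the rates hold for cleaner data than these. Replicates differed by more than sampling noise in every pair. Coordinates of Acsf3 are from GENCODE M21 and promoters from RefSeq (GRCm38.p6). Figures were drawn with matplotlib 3.10.9.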

Additional observations from a re-analysis of the deposited data

Results flagged for a closer look

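Among 177 named genes with 4 replicates at each of 4 times, which makes 708 groups of 4, a library lay apart from the other 3 in 59 groups, with a gap to the nearest of them that is larger, against the group's range, than Dixon's 95% critical value for 4. Chance alone puts a library apart in about 1 in 20 groups. The levels below are CPM, each with the range of the other 3 libraries of its time, and no explanation was tested.

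The pancreatic enzyme and secretory genes Cela3b, Pnlip, Try5 and Zg16 were high in 3 libraries that also led in the summed pancreas markers. In ZT0 replicate 1 Cela3b was at 289 (0 to 0.352), Pnlip was at 381 (0.590 to 1.76), Try5 was at 111 (0.586 to 0.762) and Zg16 was at 114 (0 to 0.117). In ZT3 replicate 2 Cela3b was at 459 (0 to 34.1), Pnlip was at 743 (0 to 45.3), Try5 was at 258 (0 to 16.0) and Zg16 was at 252 (0 to 14.6). In ZT12 replicate 2 Cela3b was at 225 (0.442 to 2.82), Pnlip was at 354 (0 to 3.95), Try5 was at 93.2 (0 to 0.442) and Zg16 was at 98.4 (0 to 0.442).

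Among the other genes the libraries of the light phase gave these values. ZT0 replicate 1 was low in Klf15 at 84.8 (127 to 133). ZT0 replicate 2 was high in Klf6 at 26.3 (12.4 to 13.5). ZT0 replicate 2 was low in Rgs5 at 4.19 (5.90 to 6.10). ZT0 replicate 3 was high in Ciart at 0.586 (0 to 0), Cirbp at 7.62 (1.18 to 2.01), Nnmt at 118 (47.2 to 58.2) and Plin2 at 289 (241 to 243). ZT0 replicate 3 was high in Rpl13a at 43.5 (26.0 to 27.6). ZT0 replicate 4 was high in Elovl6 at 107 (80.7 to 83.8), Mup12 at 233 (78.2 to 91.5) and Mup16 at 592 (127 to 168). ZT3 replicate 1 was high in Fgb at 5817 (4502 to 4665) and Spp1 at 110.0 (51.5 to 59.7). ZT3 replicate 1 was low in Ddx28 at 15.4 (17.1 to 17.4) and Nnmt at 53.1 (80.1 to 83.8). ZT3 replicate 2 was high in Acta2 at 37.6 (4.05 to 9.08) and Afmid at 15.8 (6.36 to 6.98). ZT3 replicate 3 was high in Dbp at 33.5 (3.01 to 4.19), Gstm3 at 54.9 (40.2 to 40.4), Mfsd2a at 6.36 (0.696 to 1.51) and Pcsk4 at 4.05 (0.696 to 1.00). ZT3 replicate 3 was high in Slc2a2 at 220.3 (156 to 156) and Wee1 at 4.62 (2.44 to 2.79). ZT3 replicate 3 was low in Lgalsl at 14.4 (20.9 to 22.1). ZT3 replicate 4 was high in Dtx4 at 14.6 (9.25 to 9.79) and Myc at 16.7 (4.05 to 4.89). ZT3 replicate 4 was low in Clpx at 121 (158 to 164).

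The libraries of the dark phase gave these. ZT12 replicate 2 was high in Cry2 at 20.2 (15.7 to 15.9). ZT12 replicate 2 was low in Lipt2 at 9.77 (12.4 to 12.7). ZT12 replicate 3 was high in C1qa at 47.4 (36.3 to 37.4). ZT12 replicate 3 was low in Klhl24 at 28.8 (42.0 to 44.3). ZT12 replicate 4 was high in Coq8a at 75.9 (53.9 to 54.1), Mepce at 18.7 (13.5 to 13.7), Npas2 at 0.603 (0 to 0) and Slc2a2 at 415 (270.1 to 279.5). ZT12 replicate 4 was high in Usp2 at 142 (97.5 to 105). ZT15 replicate 1 was high in Hbb-bs at 765 (446 to 463), Hbb-bt at 201 (129.6 to 136) and Sdf2l1 at 39.5 (26.7 to 27.4). ZT15 replicate 2 was high in Esrp2 at 28.9 (21.2 to 21.8). ZT15 replicate 2 was low in Lpin1 at 72.9 (129 to 135). ZT15 replicate 3 was high in Igkc at 29.7 (10.3 to 12.4) and Npas2 at 0.561 (0 to 0). ZT15 replicate 4 was high in Asgr1 at 806 (676 to 696) and Sox9 at 31.1 (14.6 to 15.2). ZT15 replicate 4 was low in Ddx28 at 8.09 (12.2 to 12.5) and Pfkfb3 at 4.36 (6.73 to 6.96). The major urinary protein, haemoglobin and immunoglobulin genes named here have near-identical copies, and their counts are uncertain.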

How the results depend on the processing

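The phase contrast gave 408 rises and 388 falls. Other scaling, filters and tools gave 401 and 396 (RLE), 513 and 237 (library size only), 481 and 478 (no filter), 410 and 379 (mean of at least 5 CPM), 352 and 350 (DESeq2), 456 and 423 (limma-voom), 485 and 458 (all 64 libraries) and 367 and 343 (1 mean per phase). Without the libraries with pancreas RNA the counts were 203 and 225, ZT12 minus ZT0 gave 214, ZT15 minus ZT3 155, ZT15 minus ZT12 9 and ZT3 minus ZT0 1. Without a gene filter ZT15 minus ZT12 gave 127, ZT3 minus ZT0 24 and the difference between treatments 96. DESeq2 gave 37 and 6 within the phases, and all 64 libraries gave 2 for ZT3 minus ZT0. With 1 replicate number or 1 library left out, the rises ranged from 209 to 448 and the falls from 213 to 414, ZT12 minus ZT0 from 208 to 357, ZT15 minus ZT3 from 214 to 526, ZT15 minus ZT12 from 0 to 54 and ZT3 minus ZT0 from 0 to 5. In the fit of 32 libraries only the 4 replicate numbers and sh-Acsf3 ZT3 replicate 3 were left out, and no sh-Ctl library singly. Over these 5 fits sh-Ctl gave 307 to 559 rises and 335 to 510 falls, and the difference between treatments 0 each time. For these counts the cause was not tested, beyond the fewer libraries or other genes each setting holds.

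Of 91 named calls of the phase contrast, 20 ended without the pancreas libraries, 10 to 22 without 1 replicate number, 0 to 6 without 1 library, 6 with all 64 libraries, 4 with library size only or 1 mean per phase, 3 with DESeq2, 1 without a filter and 0 with limma-voom. Signs turned for no call. They turned for Nr1d1 (-0.025 with 1 mean per phase), Fabp4 (0.138) without the pancreas libraries, Cirbp (0.134 without replicate 3, 0.157 without ZT0 replicate 3, and down to -0.659 without replicate 1), Spp1 (0.067 without replicate 1, 0.06 without ZT3 replicate 1, and down to -0.252 without replicate 4), Cela3b (0.498 without replicate 1, 0.414 without ZT0 replicate 1, and -6.371 without ZT12 replicate 2), Zg16 (0.499, 0.316 and -7.054 likewise), and Hbb-bs (-0.013) and Hbb-bt (-0.002) without ZT12 replicate 2, against 0.458 and 0.397 without ZT0 replicate 1. The cause was not tested.

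The replicate numbers were not taken as pairs, since not every correlation of same-numbered libraries was over 0.1. Their 24 correlations ran from -0.4 to 0.53 (median 0.041, 8 over 0.1), those of 72 pairs with other numbers from -0.318 to 0.49 (median -0.01, 15 over 0.1), and 6 of 16 libraries correlated best with their own number. With the replicate block the counts were 406 and 399, 367, 505, 17 and 0 in the order above, 543 and 554 in sh-Ctl, and 0 for the difference between treatments. With the block Hspa1b did not pass (edgeR adjusted p = 0.056), while Myc, Nr1i2 and Rora did. Depth limits genes of a few UMIs, such as Acsf3, Npas2 in the dark and Ciart in the light.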

Other observations

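The clock and clock output transcripts of ZT3 replicate 3 were set beside the other sh-Acsf3 libraries of ZT3 and those of ZT6, with 1 scaling for all 64 libraries. The 17 genes were chosen after the library was seen to stand apart, and ZT6 belongs to none of the comparisons above. The library lay within the range of ZT6 and outside that of the other 3 ZT3 libraries for 11 genes, within the range of ZT3 and outside that of ZT6 for 3 (Ciart, Per1 and Nr1d2), and within neither for 3 (Nfil3, Npas2 and Per2). Among the 11, Arntl was at 3.91 CPM, against 11.4 to 18.6 at ZT3 and 3.23 to 6.19 at ZT6. Dbp was at 32.4 CPM, against 2.90 to 4.05 and 27.8 to 70.6, and Nr1d1 at 33.5 CPM, against 6.72 to 14.2 and 16.2 to 45.7. Nr1d2, at 16.8 CPM, lay within the 3.38 to 18.2 of ZT3 and below the 20.9 to 37.9 of ZT6. Nfil3, at 3.91 CPM, lay below both ZT3 (17.5 to 24.3) and ZT6 (6.93 to 10.7). The library was analysed under its label.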
